A study of Mus musculus with 6 samples.

Results

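The Gimap genes (GTPases of immunity-associated proteins) encode small GTP-binding proteins of lymphocytes. Of the 8 members analysed here, Gimap1, Gimap3, Gimap4, Gimap5, Gimap6, Gimap7, Gimap8 and Gimap9, all had at least 1 probe set that the annotation of the Mouse Genome 430 2.0 array assigns to that symbol alone. These were 11 probe sets of 45037 tested, and 8 genes of 18193. Members were taken by symbol, but the family was chosen with earlier results of these data known. The question was whether the genes of this cluster differ together between early thymic progenitors without Tcf1 and those of the control genotype, Tcf1-/+.

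RNA came from thymocytes of the DN1 stage of C57Bl/6 mice aged 10 weeks, sorted as negative for lineage markers and CD25 and positive for CD44 and kit. There were 3 arrays of Tcf1-/- and 3 of Tcf1-/+ cells, and the second genotype is called wild type in another label field, so the control genotype is not settled. On average 1000 cells gave 3 ng of total RNA, which was amplified before labelling. The labels do not state the number of animals behind an array, and the p-values measure the spread between these arrays only.

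The Gimap genes lie side by side on mouse chromosome 6, in the order Gimap8, Gimap9, Gimap4, Gimap6, Gimap7, Gimap1, Gimap5 and Gimap3. Their proteins share a GTP-binding domain, many sit on membranes of organelles, and they are known for regulating the survival of lymphocytes. Some members bind proteins of the Bcl-2 family or of the autophagy machinery. Tcf1 is a DNA-binding protein of the TCF/LEF family that acts early in T-cell development.

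Arrays were not alike in all respects. Tcf1-/- replicate 2 correlated with the other 5 arrays between 0.870 and 0.893 over all probe sets. The mean log2 level of Y-linked genes was 5.98 on Tcf1-/- replicate 2, 6.73 on Tcf1-/- replicate 3 and 7.57 on Tcf1-/+ replicate 2. It was 3.62 and 3.65 on Tcf1-/+ replicates 1 and 3, and close to these on Tcf1-/- replicate 1. Xist, the RNA of the inactive X chromosome, was at 5.12 on Tcf1-/+ replicate 2 and between 12.87 and 13.45 on the other 5, so that Tcf1-/- replicates 2 and 3 were high in both. The labels give no sex. Of the genes that mark the sorted cells, Ptprc was between 11.95 and 12.71, Cd44 between 9.60 and 10.39 and Kit between 7.45 and 10.80 on all 6 arrays. A list of 10 genes was drawn up here for CD25 and common lineage markers, of which the sort as described above names only CD25. Of the 10, 6 were measured, all 6 with higher means in Tcf1-/- and a median difference of 0.57. Means were higher for 9881 of all 18193 genes. Only Cd4 was higher without overlap, 1 of the 6 beside 7.22% of all genes, and 0 were lower without overlap. Cd8b1 and Itgam had means under background in both genotypes, while Cd8a was between 5.37 and 7.55 and Itgax between 6.46 and 9.52 over the 6 arrays. Il2ra, which encodes CD25, was between 9.22 and 10.97, and Cd4 between 8.51 and 9.86 in Tcf1-/- against 5.49 to 7.27 in Tcf1-/+, although the gate excludes cells with CD25 on their surface. Background is the 95th percentile of the bacterial control probe sets, a log2 level of 5.21.

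The sequences before the start sites of Gimap6, Gimap7 and Gimap1 are shown because these are the 3 members whose arrays separated by genotype, described below. They are the 250 bases upstream of each start site, from RefSeq on GRCm38.p6, 5′ to 3′ on the strand of the gene. Gimap6 lies on the minus strand at chr6:48708245-48708494, Gimap7 on the plus strand at chr6:48718371-48718620 and Gimap1 on the plus strand at chr6:48738797-48739046. Capitals mark letters of a motif of the ETS family (GGAAGT or ACTTCC) or of the RUNX family (TGTGGT or ACCACA), both strands searched.
Gimap6: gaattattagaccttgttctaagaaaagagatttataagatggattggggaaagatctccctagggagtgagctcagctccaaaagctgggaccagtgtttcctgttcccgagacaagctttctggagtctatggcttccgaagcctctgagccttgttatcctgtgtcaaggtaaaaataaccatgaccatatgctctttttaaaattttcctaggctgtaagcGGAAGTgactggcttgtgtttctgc
Gimap7: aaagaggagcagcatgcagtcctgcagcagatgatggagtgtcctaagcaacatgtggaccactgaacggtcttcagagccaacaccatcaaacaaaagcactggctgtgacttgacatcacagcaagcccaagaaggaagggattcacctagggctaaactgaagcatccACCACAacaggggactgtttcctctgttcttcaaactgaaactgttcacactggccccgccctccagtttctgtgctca
Gimap1: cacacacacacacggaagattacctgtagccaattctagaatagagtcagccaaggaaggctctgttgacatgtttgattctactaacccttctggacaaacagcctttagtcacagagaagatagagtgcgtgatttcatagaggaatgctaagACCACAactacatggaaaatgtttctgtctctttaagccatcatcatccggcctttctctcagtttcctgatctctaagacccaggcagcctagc
The start sites of Gimap6 and Gimap7 are 10377 bases apart, with the genes reading away from each other. The ETS letters begin 25 bases before the start site of Gimap6. The RUNX letters begin 79 bases before that of Gimap7 and 95 bases before that of Gimap1.

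RefSeq windows of 250 bases before to 50 after the start site were available for all 8 members, 9 windows in all since Gimap8 has 2. The TCF/LEF motif CTTTGA, or TCAAAG on the other strand, was found in 2 of the 9 windows and in 16.0% of all 32851 windows. Both lie behind the start site, in Gimap4 at base 26 and in Gimap7 at base 43, and are shown in capitals with the bases around them.
Gimap4: aatcagagaaggTCAAAGgacccagatttt
Gimap7: tgcagtcagattCTTTGAag
In the values below, Gimap7 separates by genotype, and Gimap4 overlaps with a wide interval. Any part of these letters in the values was not tested. The 3 windows of Gimap6, Gimap1 and Gimap5 held an ETS motif, as did that of Gimap9, a total of 4 of 9 windows against 23.8% of all windows. A RUNX motif was in 3 of 9, those of Gimap4, Gimap7 and Gimap1, against 16.8%. The GATA motif AGATAA, or TTATCT, was in 0 of 9 against 11.2%. No motif of these overlapped another in the 9 windows. A match describes letters in the window and is no measured binding site.

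Of the 8 members, 3 had lower levels on every Tcf1-/- array than on every Tcf1-/+ array, namely Gimap6, Gimap7 and Gimap1. They lie next to each other in the middle of the cluster. The other 5 members, Gimap8, Gimap9 and Gimap4 on one side and Gimap5 and Gimap3 on the other, overlapped between genotypes. No difference passed the threshold of 0.05 after adjustment over all probe sets with limma, which called 0.0% of the 45037 probe sets. At an unadjusted p under 0.05 the same 3 members had lower and 0 had higher levels in Tcf1-/-, where 3.4% of all genes were lower and 3.38% higher. Levels that did not overlap and were lower in Tcf1-/- were met in 3 of 8 members and in 4.94% of all genes. Since the family was chosen with earlier results known, these counts are a description and the family was not tested as a set. In bulk samples, fewer cells of a type and less RNA per cell cannot be told apart. In means, 4 members were lower and 4 higher. The median difference of the 8 members was -0.22 on the log2 scale, beside 0.04 over all genes. It turned to 0.33 without Tcf1-/- replicate 1 and to 0.09 without Tcf1-/+ replicate 2, and was -0.70 without Tcf1-/- replicate 2, -0.57 without Tcf1-/- replicate 3 and -0.68 without Tcf1-/+ replicate 1. In these counts a gene stands for its brightest probe set, the 1 whose values over all 6 arrays average highest.

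**Figure D1:**
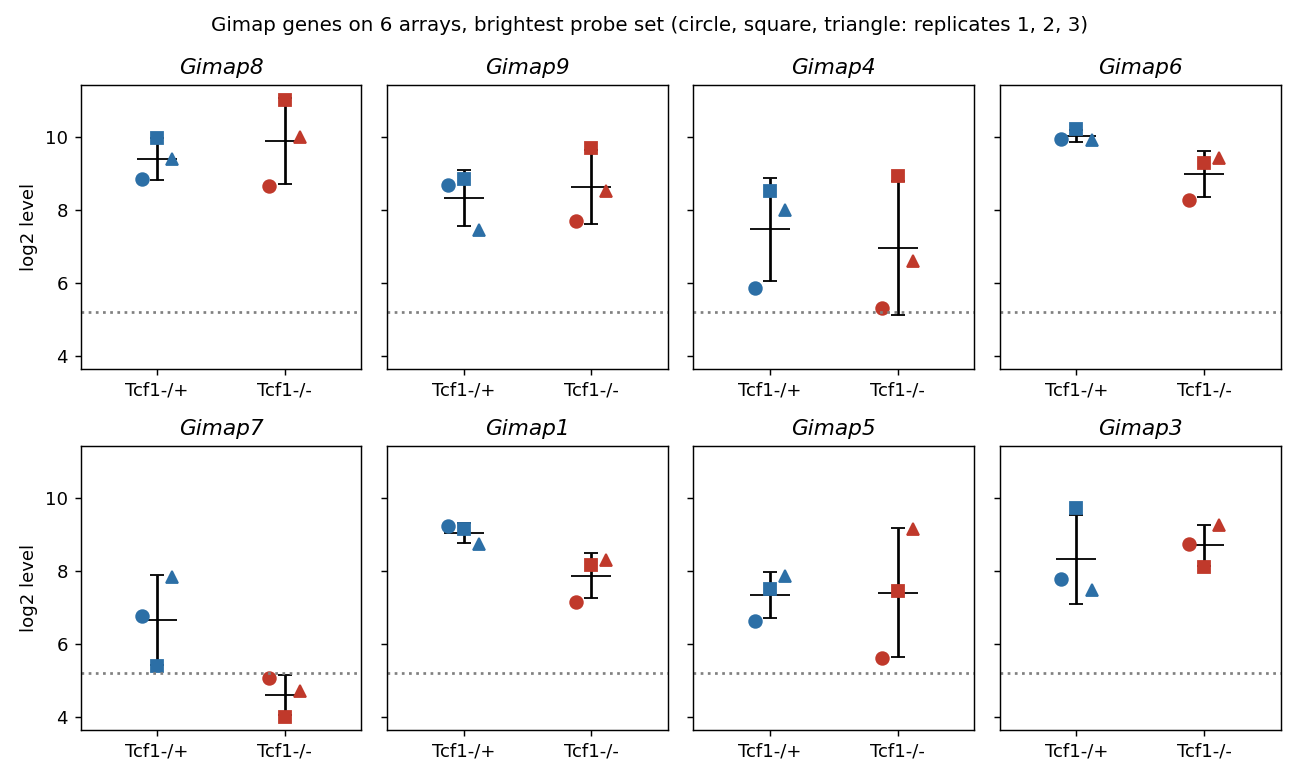
Log2 level of the 8 Gimap genes on each array (vertical axis), by genotype (horizontal axis), on the brightest probe set of each gene; symbols are arrays, horizontal lines and bars the mean and SD of 3 arrays, and the dotted line the background of 5.21. The Tcf1-/- points of Gimap6, Gimap7 and Gimap1 all lie below the Tcf1-/+ points, and those of the other 5 genes overlap.

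Gimap1 is required in mice for the development and survival of mature B and T cells. Its log2 levels were 7.16, 8.16 and 8.29 on the Tcf1-/- arrays, against 9.23, 9.15 and 8.73 on those of Tcf1-/+. All 3 Tcf1-/- arrays were lower, and replicate 1 was the lowest. The Tcf1-/- mean was 7.87 ± 0.62 (SD, n = 3) and the Tcf1-/+ mean 9.04 ± 0.26 (SD, n = 3). They differed by -1.17 (SE 0.36; SEs of differences are limma's throughout). Its 95% confidence interval was -2.04 to -0.29, with an adjusted p of 0.659 from limma. As a fold, Tcf1-/- was 2.24 times lower.

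Gimap6, whose protein binds a member of the Atg8 family of autophagy proteins, was at 8.28, 9.29 and 9.43 on the Tcf1-/- arrays, against 9.95, 10.21 and 9.92 on those of Tcf1-/+ on its brighter probe set. The Tcf1-/+ arrays lay within 0.29 of each other and the Tcf1-/- arrays within 1.14. The difference was -1.03 (SE 0.35), with an interval of -1.88 to -0.18 and an adjusted p of 0.707 from limma. The other probe set of Gimap6 also did not overlap, at 3.87, 3.22 and 4.35 against 7.38, 8.63 and 5.01. Its difference was -3.19 (SE 0.92), but all Tcf1-/- values and that of Tcf1-/+ replicate 3 were under background, so its size is not well measured.

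Gimap7 encodes a member whose dimers stimulate GTP hydrolysis. It was at 5.07, 4.01 and 4.73 on the Tcf1-/- arrays, against 6.77, 5.39 and 7.83 on those of Tcf1-/+. All Tcf1-/- values were under background and all Tcf1-/+ values above it, with Tcf1-/+ replicate 2 close to it. The difference was -2.06 (SE 0.65), with an interval of -3.65 to -0.47 and an adjusted p of 0.677 from limma, and it became -1.45, with a limma p of 0.0921, when every value under background was raised to that level. That left 2 of the 8 members lower at an unadjusted p under 0.05. On the dimmer probe set the Tcf1-/- arrays were at 4.20, 4.43 and 4.10 and the Tcf1-/+ arrays at 4.06, 5.92 and 6.37. There the genotypes overlapped through Tcf1-/+ replicate 1, and the difference was -1.20 (SE 0.61).

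The unadjusted p of these 3 genes crossed 0.05 in some fits without 1 array, which also have fewer arrays to measure the spread. Over all 6 arrays the limma p was 0.0251 for Gimap6, 0.0195 for Gimap7 and 0.0174 for Gimap1. Without Tcf1-/+ replicate 1 all 3 genes had a limma p above 0.05, at 0.0541, 0.0541 and 0.0559. Their differences there were -1.07 (SE 0.43) for Gimap6, -2.01 (SE 0.80) for Gimap7 and -1.07 (SE 0.43) for Gimap1. They lay near those over all 6 arrays, with larger SEs. Without Tcf1-/+ replicate 2, Gimap6 was at 0.0746 and Gimap1 at 0.0522 in limma, and Gimap7 at 0.00258. Without Tcf1-/- replicate 2 the differences were -1.17 for Gimap6, -1.76 for Gimap7 and -1.31 for Gimap1, and Gimap7 had a limma p of 0.0619. Without Tcf1-/- replicate 1, the lowest array of Gimap6 and Gimap1, the differences were -0.67 for Gimap6 and -0.81 for Gimap1, and without Tcf1-/+ replicate 3 Gimap6 had a limma p of 0.0511.

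**Figure D2:**
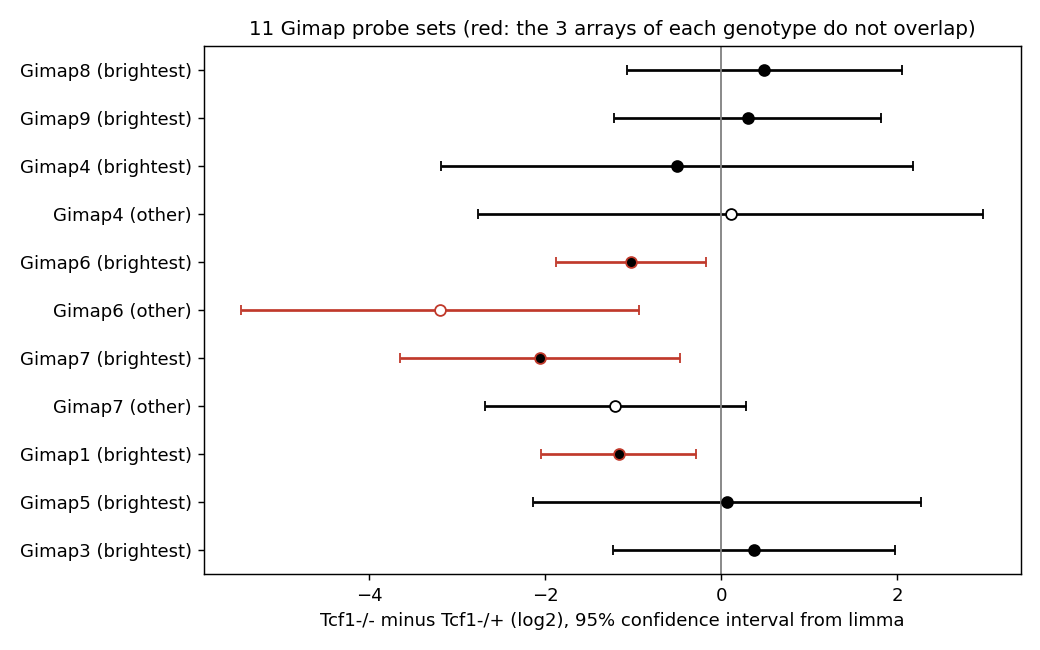
Difference in log2 level, Tcf1-/- minus Tcf1-/+ (horizontal axis), with its 95% confidence interval from limma, for each of the 11 Gimap probe sets (vertical axis, in order along the cluster); filled points are the brightest probe set of a gene and red marks genotypes that do not overlap. The intervals of both Gimap6 probe sets, the brighter Gimap7 probe set and Gimap1 lie below 0, and the other 7 include 0.

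Gimap5, the member best known for keeping naive lymphocytes alive, did not separate by genotype. It was at 5.61, 7.45 and 9.16 on the Tcf1-/- arrays, against 6.64, 7.52 and 7.86 on those of Tcf1-/+. The Tcf1-/- arrays spanned 3.55 log2 units and held both the lowest and the highest value. The difference was 0.07 (SE 0.90), with an interval of -2.14 to 2.27. Changes of more than 2 log2 units in either direction lie within that interval.

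Gimap3 is the closest relative of Gimap5 and once carried its symbol, which the RefSeq table lists as a synonym. Whether the probe sets of these 2 genes also bind the RNA of the other was not checked, since probe sequences were not used here. Gimap3 was at 8.74, 8.11 and 9.25 on the Tcf1-/- arrays, against 7.77, 9.72 and 7.48 on those of Tcf1-/+. Tcf1-/+ replicate 2 was above all Tcf1-/- arrays and the other Tcf1-/+ arrays below them. The difference was 0.37 (SE 0.65), with an interval of -1.23 to 1.97. Without Tcf1-/+ replicate 2 it was 1.07, with a limma p of 0.0442 and an adjusted p of 0.861.

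Gimap4, which is known to accelerate the death of T cells, varied most between arrays of one genotype among the brightest probe sets. It was at 5.34, 8.95 and 6.62 on the Tcf1-/- arrays, against 5.89, 8.52 and 8.02 on those of Tcf1-/+. Each genotype had 1 array near background, and the difference was -0.51 (SE 1.10), with an interval of -3.19 to 2.17. The other Gimap4 probe set was at 6.14, 9.91 and 5.65 against 6.20, 7.59 and 7.59, with a difference of 0.11 (SE 1.17). Without Tcf1-/- replicate 2, the highest array on both, these became -1.50 and -1.23.

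Gimap8, a member with several GTP-binding domains in 1 protein, was at 8.66, 11.01 and 10.02 on the Tcf1-/- arrays, against 8.85, 9.99 and 9.39 on those of Tcf1-/+. The Tcf1-/- arrays were both lowest and highest, and the difference was 0.49 (SE 0.64), with an interval of -1.08 to 2.05. Gimap9, the next gene of the cluster, was at 7.69, 9.70 and 8.52 against 8.70, 8.86 and 7.45. The difference was 0.30 (SE 0.62), with an interval of -1.21 to 1.82. Without Tcf1-/- replicate 2, the highest array of both genes, the differences were -0.07 and -0.23.

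Members did not move as 1 block across arrays. After subtraction of each gene's mean over the 6 arrays, the mean of the 8 members was -1.04, 0.23 and 0.14 on the Tcf1-/- arrays, against -0.13, 0.56 and 0.23 on those of Tcf1-/+, which overlap. On Tcf1-/- replicate 1, 7 of the 8 members were below their own mean, Gimap3 being the exception. On Tcf1-/+ replicate 2, 7 of 8 were above it, and Gimap7 was below. On the other 4 arrays 4 or 5 of the 8 were above.

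**Figure D3:**
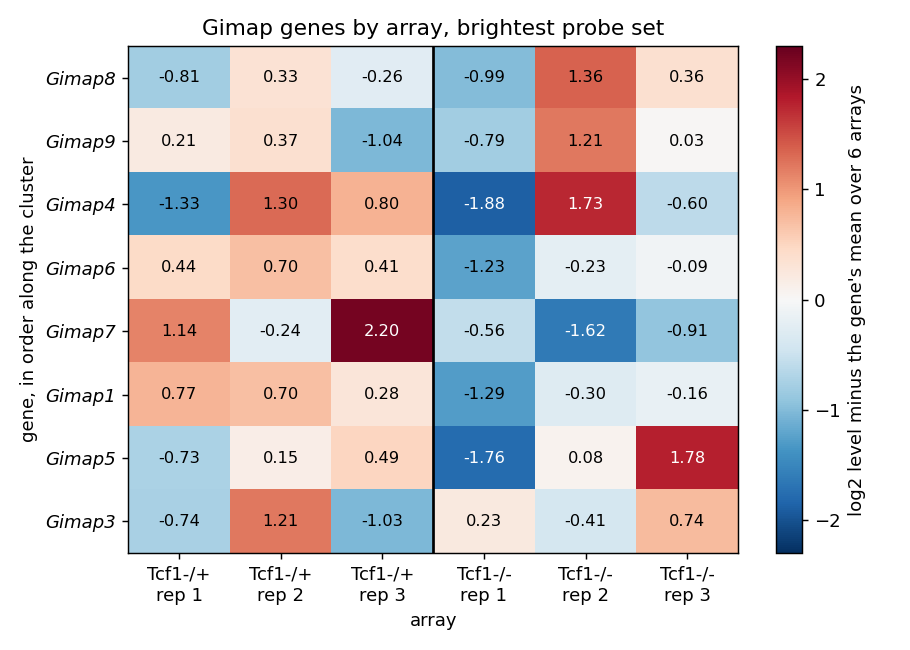
Log2 level of each Gimap gene on its brightest probe set minus the gene's mean over the 6 arrays (colour and printed value), with genes in order along the cluster (vertical axis) and arrays by genotype (horizontal axis). Gimap6 and Gimap1 lie furthest apart on Tcf1-/+ replicate 1, at 0.44 and 0.77, while Gimap4 is at 1.73 and Gimap7 at -1.62 on Tcf1-/- replicate 2.

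Pairs of members were compared by the mean absolute difference of their levels over the 6 arrays, with each gene's mean in each genotype subtracted so that the genotypes do not enter. The measure is smaller for genes that vary little, and pairs are described without a test. Among 28 pairs, Gimap6 and Gimap1 had the smallest value, 0.092 log2 units. Around their Tcf1-/- means, Gimap6 was at -0.72, 0.29 and 0.43 and Gimap1 at -0.71, 0.29 and 0.42. Around their Tcf1-/+ means they were less alike, with Gimap6 at -0.08, 0.18 and -0.11 and Gimap1 at 0.19, 0.11 and -0.30. Gimap8 and Gimap9 followed with 0.41, and Gimap4 and Gimap7 were furthest apart with 1.63. Gimap7, which lies between Gimap6 and Gimap1, differed from them by 0.88 each, and it was on the same side of its genotype mean as Gimap6 on 1 of 6 arrays. All 3 Tcf1-/- values of Gimap7 are under background, so its deviations among those arrays are not well measured. Pairs next to each other in the cluster had a median of 0.88 over 7 pairs, and pairs further apart a median of 0.85 over 21 pairs.

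The range of the 3 arrays was wider in Tcf1-/- than in Tcf1-/+ for 6 of 8 members, all but Gimap7 and Gimap3. The same held for 58.5% of all genes.

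The 10 nearest measured genes on each side of the cluster were set beside it. Of these 20 genes, 12 had higher and 8 lower means in Tcf1-/-, with a median difference of 0.13. None passed limma's adjusted threshold, and 3 had an unadjusted p under 0.05 against 6.78% of all genes. Without overlap, 1 was lower and 2 were higher, beside 4.94% and 7.22% of all genes. Fam221a differed by -1.60 (SE 0.45) without overlap, and Malsu1, a gene of mitochondrial ribosome assembly, by -0.90 (SE 0.35) with overlap. Rarres2, which encodes the chemoattractant chemerin, differed by 0.80 (SE 0.32) without overlap. Tmem176a and Tmem176b, the nearest genes beyond Gimap3, differed by 1.07 (SE 0.56) and 0.98 (SE 0.71), with overlap. AI854703 and Zfp775, the nearest before Gimap8, differed by -0.22 (SE 0.20) and -0.39 (SE 0.55), also with overlap. These 4 border genes were chosen by their place. The genes that border the cluster were thus measured with differences of both signs.

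**Figure D4:**
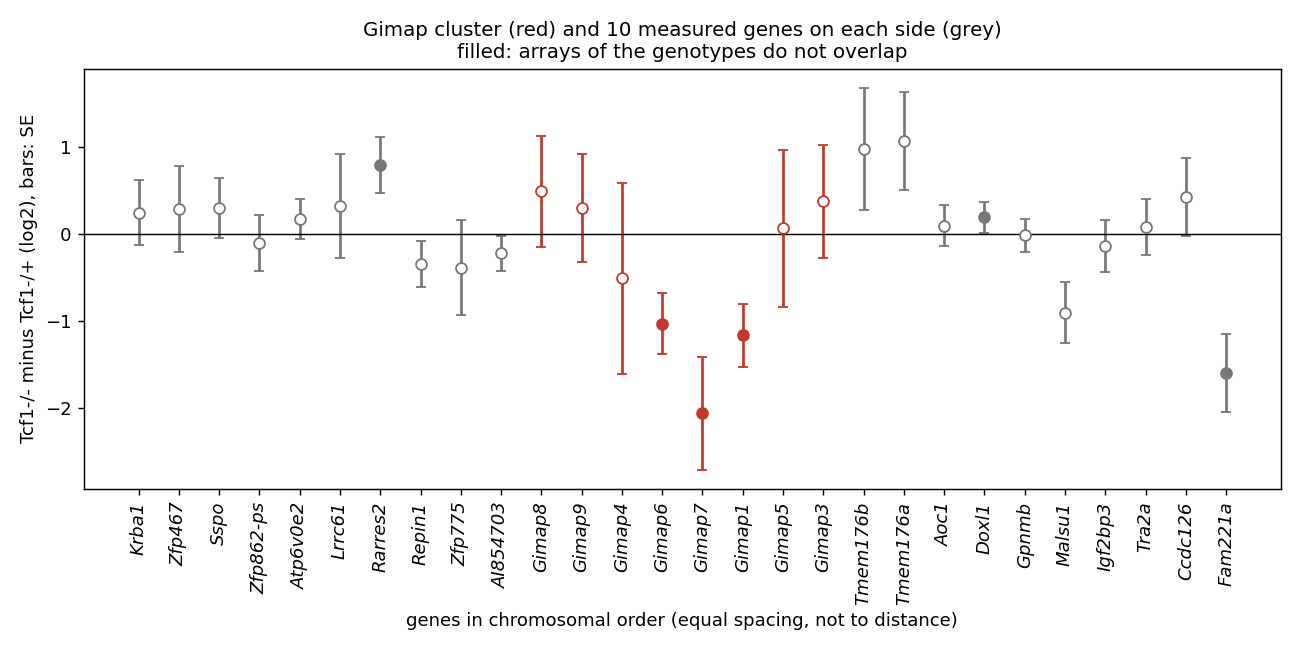
Difference in log2 level, Tcf1-/- minus Tcf1-/+ (vertical axis, bars are the SE from limma), of the 8 Gimap genes (red) and the 10 nearest measured genes on each side (grey), in chromosomal order with equal spacing (horizontal axis); filled points mark genotypes that do not overlap. Gimap6, Gimap7 and Gimap1 form a run of 3 points between -1.03 and -2.06, and Fam221a is the 1 neighbour that is lower without overlap.

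Genes whose products are known to bind GIMAP proteins or to act with them in survival and autophagy were measured for 22 of 23 listed. Of these, 10 had higher and 12 lower means, with a median of -0.10, and 0 passed limma's adjusted threshold. Unadjusted p under 0.05 were met in 2 of 22, beside 6.78% of all genes. Bcl2, the anti-apoptotic protein that gave its family the name, was at 12.30, 12.17 and 12.55 on the Tcf1-/- arrays, against 11.29, 11.39 and 11.90 on those of Tcf1-/+. It was higher on all 3 Tcf1-/- arrays, with a difference of 0.81 (SE 0.25). Gabarapl1, an Atg8-family protein, differed by -0.85 (SE 0.33), the kinase gene Akt1 by -0.91 (SE 0.47) and Map1lc3a, also of the Atg8 family, by 1.48 (SE 0.78), all with overlap. Gabarapl2, the Atg8-family partner of Gimap6, differed by -0.76 (SE 0.65), with overlap, and was chosen after its values were seen.

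Other GTPases were set beside the Gimap genes. Of 12 listed small or immune GTPases, all measured, 9 had higher and 3 lower means in Tcf1-/-, with a median of 0.30. Levels were higher without overlap for 5 of them, against 7.22% of all genes, and lower without overlap for 0. Those of smallest p were the immunity-related GTPases of the interferon response. Irgm1 was at 7.86, 8.91 and 8.04 on the Tcf1-/- arrays against 7.31, 7.10 and 6.72, a difference of 1.22 (SE 0.34). Iigp1 differed by 3.36 (SE 1.10) from a Tcf1-/+ mean under background, and Igtp by 1.89 (SE 0.71), both without overlap and highest on Tcf1-/- replicate 2. Irgm2 differed by 1.70 (SE 0.76), with overlap. Mx2 and Rap1b, also higher without overlap, differed by 0.26 (SE 0.18) and 0.23 (SE 0.19). Gbp2, Gbp3 and Mx1 differed by 0.33, -0.14 and 0.52, all with overlap. Of the 12, 0 passed limma's adjusted threshold, and 3 had an unadjusted p under 0.05, all higher, against 3.38% of all genes. The difference between these GTPases and the Gimap genes was not tested.

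Markers of cells that the sort could hold were read beside the Gimap values, since Gimap genes are used by mature lymphocytes and endothelium. Of 20 mature T-cell markers 18 were measured, 12 with lower and 6 with higher means in Tcf1-/-, and 5 were lower and 2 higher without overlap, beside 4.94% and 7.22% of all genes. Their mean log2 level was between 7.05 and 7.35 on the Tcf1-/- arrays and between 7.23 and 8.15 on the Tcf1-/+ arrays. Cd28, a costimulatory receptor, was under background on all 3 Tcf1-/- arrays and between 6.11 and 8.89 on the Tcf1-/+ arrays. Cd5, Trat1, Cd3d and Cd27 were the others lower without overlap, by -1.12, -1.04, -1.06 and -1.15. Cd3e differed by -1.66 (SE 0.55), with overlap. Cd8b1 was under background on all 6, while Cd8a was above it on all 6, between 5.37 and 7.55. Il7r, a cytokine receptor also made by innate lymphoid cells, and Cd4 were the 2 that were higher without overlap, by 2.00 (SE 0.40) and 2.93 (SE 0.61). Of 9 B-cell markers measured of 10, 7 had higher means, and 3, Ms4a1, Blnk and Ebf1, had means under background in both genotypes. Without overlap, 2 were higher and 0 lower, beside 7.22% and 4.94% of all genes. The 2 were Ms4a1, under background on all 6 arrays, and Fcrla, between 5.04 and 5.89, so neither separation is well measured. The mean level of the 9 was between 5.51 and 5.81 in Tcf1-/- and between 5.36 and 5.56 in Tcf1-/+. All 10 endothelial markers were measured, 6 with higher and 4 with lower means. Egfl7 differed by -0.97 (SE 0.25) and was the 1 that was lower without overlap. None was higher without overlap, and the shares of all genes were 4.94% lower and 7.22% higher. Both means were under background for 5, Cdh5, Tek, Emcn, Tie1 and Cldn5, and above it for Pecam1, Esam, Kdr, Ramp2 and Egfl7. Their mean was between 5.65 and 5.95 in Tcf1-/- and between 5.57 and 6.04 in Tcf1-/+. Of 13 natural killer and innate lymphoid markers measured of 14, 5 were higher and 1 lower without overlap, beside 7.22% and 4.94% of all genes, and their mean was between 7.94 and 8.70 in Tcf1-/- against 6.70 to 7.47 in Tcf1-/+. In means, 8 were higher and 5 lower. The 5 higher without overlap were Id2, Gzmb, Icos, Il18r1 and Cxcr6. They differed by 3.19, 4.06, 3.22, 2.43 and 4.50, the last from a Tcf1-/+ mean under background. Klrd1 was the 1 lower without overlap, by -1.49 (SE 0.60). Nkg7, Eomes, Gata3 and Tbx21 also had lower means, with overlap. The defining markers Ncr1 and Tbx21 had means under background in both genotypes. Of the 8 progenitor and gate markers measured of 9, Flt3 and Cd34 were lower and Spn higher without overlap, beside 4.94% and 7.22% of all genes, and the list's mean was between 9.71 and 10.08 in Tcf1-/- against 10.35 to 10.48 in Tcf1-/+. Of 10 myeloid markers 9 were measured, 7 with higher means, and 0 separated by genotype. Their mean was between 7.67 and 8.82 in Tcf1-/- and between 6.82 and 9.03 in Tcf1-/+. The part of any of these markers in the Gimap values was not tested.

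The 5 genes whose pattern over the 6 arrays was most like the mean of the 8 Gimap genes were taken from 10788 other genes whose mean exceeded the median over all probe sets. By Pearson correlation these were Zfp709, a zinc finger gene, with 0.989, Plscr3, a phospholipid scramblase, with 0.986, Ogt, the O-GlcNAc transferase, with 0.985, Notch1, the Notch receptor of early T-cell development, with 0.974 and Ncf1, a subunit of the phagocyte oxidase, with 0.973. They are the highest of many and are given as a description over 6 arrays. All 5 overlapped between genotypes, with differences between -0.52 for Zfp709 and -0.21 for Ogt, and all were lowest on Tcf1-/- replicate 1 and highest on Tcf1-/+ replicate 2, as the Gimap mean was. Since they were picked for this pattern on the same 6 arrays, these likenesses follow largely from the choice.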

How the data were processed

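The Affymetrix arrays of 6 samples were used, 3 of each genotype, grouped by sample title. The deposited values are log2 levels per probe set, used as deposited. The log2 scale was taken from the values. The authors' summarization and normalization are not given in the sources used here. Of 45101 probe sets, 64 controls were left out. The platform annotation gave 1 symbol to 34945 of the rest, several to 932 and none here to 9160. All 11 Gimap probe sets matched the RefSeq table of GRCm38.p6 by gene identifier. Arrays have no read depth, and their number limits the precision.

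A two-sided limma fit (version 3.58.1, R 4.3.3, lmFit and eBayes) covered all probe sets, with Benjamini-Hochberg adjustment and a threshold of 0.05. Differences are Tcf1-/- minus Tcf1-/+. Exact permutation of 3 against 3 arrays cannot give a p below 0.1 and was not used. The fit was also run on simulated arrays with independent normal noise, which checks the code and not its fit to these arrays. Members and lists were chosen with earlier results of these data known. Of the neighbours and of each list, up to 4 genes of smallest unadjusted p are named. Genes of the lists named beyond these were chosen after their values were seen. All Gimap probe sets are given. Alternatives were the replicate block, quantile normalization, a common median, a filter and a floor at background, array weights, a variance trend, the Y-linked level as a covariate, the mean of a gene's probe sets, and leaving out each array.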

Additional observations from a re-analysis of the deposited data

How the results depend on the processing

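With the replicate number as a block, the differences were the same by construction, 3 members were again lower at an unadjusted limma p under 0.05, and the median stayed at -0.22. Deviations of same-numbered arrays correlated at 0.030, 0.045 and 0.012 over all probe sets. Those of differently numbered arrays lay between -0.090 and 0.061. This does not settle whether the numbers pair the arrays. On the brightest probe sets the block lowered the SE of Gimap8 (0.33), Gimap9 (0.51), Gimap4 (0.43), Gimap6 (0.32), Gimap7 (0.43) and Gimap5 (0.52). It raised that of Gimap1 (0.39) and Gimap3 (0.74). Under all 15 alternatives 0 Gimap probe sets passed the adjusted threshold. Gimap1, Gimap6 and Gimap7 had lower means in Tcf1-/- under each alternative. Of 153 alternative values of the Gimap probe sets, 13 changed sign. With array weights the second Gimap4 probe set was at -0.43, and with the Y-linked covariate it was at -0.016 and Gimap5 at -0.18. The others changed sign when 1 array was left out. Over these fits the difference lay between -0.069 (without Tcf1-/- replicate 2) and 1.11 for Gimap8, and between -0.23 (without that array) and 0.77 for Gimap9, which was at -0.14 without Tcf1-/+ replicate 3. It lay between -1.50 and 0.31 (without Tcf1-/- replicate 1) for the first Gimap4 probe set, and between -1.23 (without Tcf1-/- replicate 2) and 0.90 for the second. It lay between -0.81 (without Tcf1-/- replicate 3) and 0.96 for Gimap5, and between -0.047 (without Tcf1-/+ replicate 3) and 1.07 for Gimap3. The family median was -0.44 with array weights, -0.50 with the Y-linked covariate and -0.07 with the mean of probe sets, and with the floor 2 members were lower at an unadjusted limma p under 0.05. Leaving out each array gave a family median from -0.70 to 0.33, the latter without Tcf1-/- replicate 1, 0 to 3 members lower at an unadjusted limma p under 0.05, and 0 to 1 member higher without overlap. Among the 20 neighbours it gave 1 to 2 lower at that p, 1 to 3 lower and 2 to 5 higher without overlap. With 1 array fewer, genotypes separate more easily, and shares of all genes are not given for these alternatives. With the filter, the floor, array weights or the Y-linked covariate, 1 neighbour was lower at that p, and with the mean of probe sets 2 were lower and 1 higher without overlap. The neighbours' median turned to -0.01 with the floor and without Tcf1-/- replicate 2. The cause of these changes was not tested.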
